A study of Mus musculus with 8 samples.

Results

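The newborn sample of developing mouse adipose tissue (P0, postnatal day 0) was set against the earliest embryonic sample (e15.5, named by embryonic day). Both are pools that carried strong signal of striated muscle and epidermis. The comparison was defined by 2 array titles, P0 and e15.5, which are 2 of the 8 arrays of the series, and by a level of 7.5 or more on the log2 scale on either array. This kept 7307 of 18312 features, where a feature is a gene, represented by its brightest probe on average, or a probe with no gene name here. Differences are P0 minus e15.5, and those of 1 log2 (a factor of 2) or more were counted.

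The series followed white adipose tissue of C57BL/6 mice at e15.5, e16.5, e17.5, e18.5, P0, P2, P5 and P12. No treatment or genetic change is labelled at any stage, and the depot is not given. Each stage was 1 pool on 1 Illumina MouseRef-8 bead array, with at least 3 embryos per pool in one label and 4 in another. A difference between 2 stages therefore has no replicate check and carries no p-value.

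Skeletal muscle, epidermis and fat all mature over these days. Skeletal muscle of the embryo builds its contractile filaments from embryonic and slow or cardiac isoforms of actin, troponin and myosin, which give way to adult fast forms around birth, and the fetal subunit of the acetylcholine receptor is exchanged for an adult one as the nerve-muscle synapse matures. Epidermis stratifies late in gestation: basal cells express Krt5 and Krt14, the layers above them Krt1 and Krt10, and the outermost cells cross-link loricrin, filaggrin-like and late cornified envelope (Lce) proteins into the barrier. White adipocytes form in the same period and switch on genes for lipid storage, lipolysis and adipokines.

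On the deposited log2 scale, the P0 array was 1 log2 or more above the e15.5 array in 515 features (7.05% of those kept) and 1 log2 or more below it in 521 (7.13%). These shares are the background for every list count below. The median difference was -0.05, and the 2 arrays correlated at 0.935 across all probes, which are not independent replicates. At 2 log2 or more, 147 features were higher and 76 were lower at P0. The e15.5 level was under 7.5, near the floor of the scale, for 141 of the higher features, and the P0 level was under 7.5 for 100 of the lower ones. Where the lower level was under 7.5, the fold was taken against 7.5 and is written as a lower bound. The values nearest the threshold were 1.0002 and 0.9961 on one side and -1.0001 and -0.9999 on the other. Of the sex-linked transcripts set aside by name, 1 was kept and 0 differed by 1 log2 or more.

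**Figure D1:**
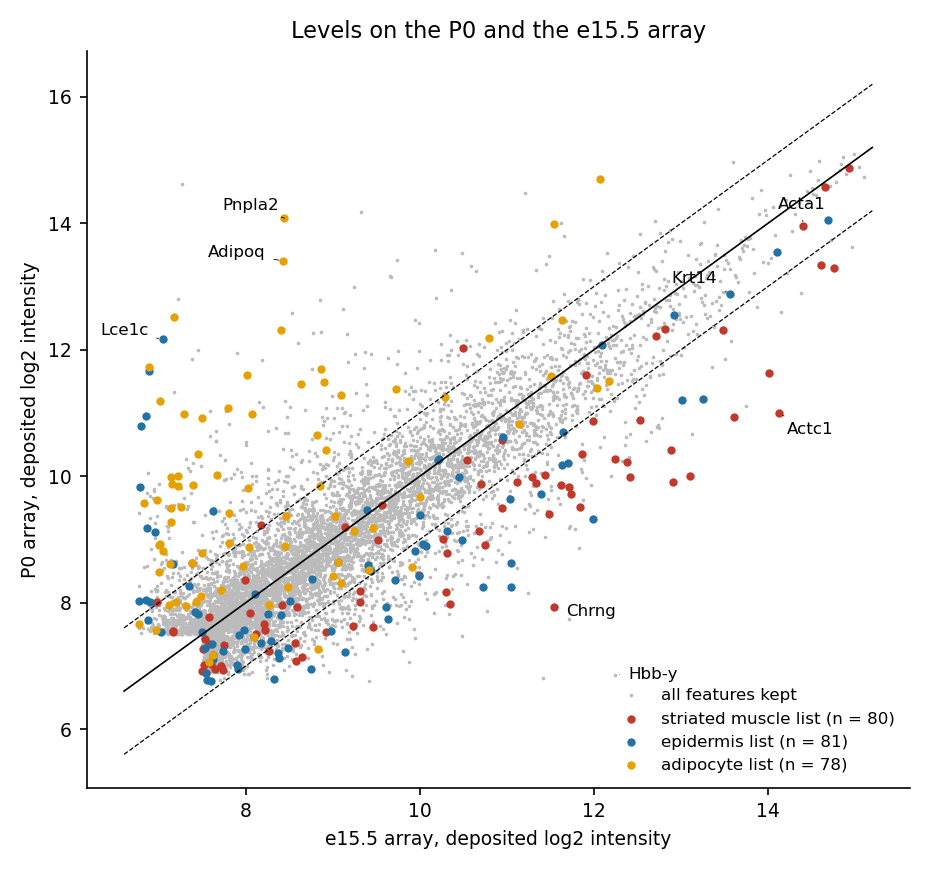
Deposited log2 intensity of each of the 7307 features kept (grey; sex-linked transcripts left out) on the P0 array (vertical axis) against the e15.5 array (horizontal axis), with members of the striated muscle (red), epidermis (blue) and adipocyte (yellow) lists. The solid line marks equal levels and the dashed lines 1 log2 either way: adipocyte genes such as Pnpla2 lie above the lines, muscle genes such as Chrng and Actc1 below them, and Acta1 and Krt14 between them.

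What set both pools above the other 6 arrays was mostly muscle. A total of 61 of 18312 features (0.333%) stood 1 log2 or more above the highest of the other 6 arrays on both the P0 and the e15.5 array. Of these, 36 belonged to the striated muscle list, 11 to the epidermis list and 14 to neither. Within this set 45 were lower at P0, 0 were higher and 16 lay within 1 log2. Atp2a1, the calcium pump of fast muscle fibres, had 12.21 at P0 and 12.72 at e15.5, against 7.09 to 8.34 on the other 6 arrays. Krt14, the keratin of basal epidermal cells, had 12.89 at P0 and 13.56 at e15.5, against 6.89 to 10.504 elsewhere. These features were chosen for standing above the other arrays, so their levels there are a description. In a bulk sample fewer cells of a type and less RNA per cell cannot be told apart.

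Striated muscle genes were lower at P0 as a group, and by unequal amounts. Of 120 list members on the array 80 were kept, of which 4 were higher, 42 were lower and 34 lay within 1 log2. Over all features kept 7.05% were higher and 7.13% lower. The median difference was -1.13 over the 80, beside -0.05 over all features kept. Over the 51 members at 9 or more on either array the median was -1.47, with quartiles of -2.05 and -0.68. Members are given relative to that median below, because how much muscle each pool held was not measured. The list shares Cox8b, Cox7a1 and Slc2a4 with lists of fat genes, and they are 3 of its 4 higher members.

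The lowest muscle gene relative to e15.5 was Chrng, the fetal gamma subunit of the muscle acetylcholine receptor. It had 7.93 at P0 and 11.54 at e15.5, a difference of -3.61 (12.2-fold lower at P0), and 6.81 to 7.48 on the other 6 arrays. Relative to the muscle median it stood at -2.15. Other parts of the receptor complex were lower by less: Chrnb1, the beta subunit, had 8.91 at P0 and 10.75 at e15.5 (difference -1.84). Chrna1, the alpha subunit that binds acetylcholine, had 8.01 at P0 and 9.31 at e15.5 (difference -1.30). Rapsn, which clusters the receptor at the synapse, had 7.37 at P0 and 8.56 at e15.5 (difference -1.19). The adult epsilon subunit Chrne was below 7.5 on both arrays, at 6.95 at P0 and 6.96 at e15.5, and so was Chrnd, the delta subunit, at 6.87 at P0 and 7.01 at e15.5. Whether the probes of Chrne and Chrnd report these genes was not tested. The exchange of subunits could therefore be followed on its fetal side alone.

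The 2 sarcomeric actins parted. Actc1, the cardiac alpha-actin that embryonic skeletal muscle also uses, had 11.00 at P0 and 14.12 at e15.5, a difference of -3.13 (8.75-fold lower), and its second probe gave -3.17. Acta1, the skeletal alpha-actin, had 13.96 at P0 and 14.40 at e15.5, a difference of -0.44. Relative to the muscle median Actc1 stood at -1.66 and Acta1 at 1.03. Acta1 lay near the top of the scale, 15.10, on both arrays, so its place relative to the median is not read as a gain. Both genes had their highest levels on the e15.5 array and their second highest on the P0 array.

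The bases upstream of Chrng, Actc1 and Acta1 are shown because Chrng and Actc1 had the most negative muscle differences and Acta1 is the actin counterpart of Actc1. The windows are the 200 bases before the annotated start in the RefSeq promoter table (mouse build GRCm38.p6), read 5′ to 3′ on the gene's strand. Capitals mark the E-box CAGCTG, bound by myogenic factors of the MyoD family, in Chrng, and the CArG box, bound by serum response factor, in both actin genes.
Chrng, chr1:87205611-87205810, plus strand: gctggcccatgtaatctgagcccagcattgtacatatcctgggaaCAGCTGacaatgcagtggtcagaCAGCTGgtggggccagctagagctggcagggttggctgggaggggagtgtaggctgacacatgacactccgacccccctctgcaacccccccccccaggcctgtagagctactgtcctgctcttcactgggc
Actc1, chr2:114052876-114053075, minus strand: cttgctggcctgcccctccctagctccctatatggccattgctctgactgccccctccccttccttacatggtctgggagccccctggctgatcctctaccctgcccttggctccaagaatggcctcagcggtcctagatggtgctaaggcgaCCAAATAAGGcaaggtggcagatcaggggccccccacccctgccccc
Acta1, chr8:123894776-123894975, minus strand: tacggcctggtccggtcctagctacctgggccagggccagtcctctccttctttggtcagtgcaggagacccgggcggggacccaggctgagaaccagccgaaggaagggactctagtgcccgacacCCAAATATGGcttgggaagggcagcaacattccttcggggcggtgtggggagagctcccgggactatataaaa
The letters CAGCTG occurred 2 times in the Chrng window, and on either strand in 10.9% of 32851 windows of the same length (3569). A CArG box occurred 1 time in the Actc1 window and 1 time in the Acta1 window, and on either strand in 1.18% of all windows (389). The differences of Actc1 and Acta1 were -3.13 and -0.44, with Acta1 near the top of the scale. Whether the CArG box has a part in them was not tested. A match is a description of the letters and not of binding.

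Troponins differed by fibre type in their medians, with 1 slow member near the floor at P0. The slow and cardiac members kept were lower in 3 of 3 cases with a median of -3.00, and the fast members in 3 of 3 cases with a median of -1.21. Tnnc1, the slow and cardiac calcium sensor, had 10.002 at P0 and 13.10 at e15.5 (difference -3.10). Tnnt1, slow troponin T, had 9.90 at P0 and 12.90 at e15.5 (difference -3.00). Tnni1, slow troponin I, had 7.13 at P0 and 8.65 at e15.5, at least 2.22-fold lower. On the fast side Tnnc2 had 13.29 at P0 and 14.76 at e15.5 (difference -1.47), equal to the muscle median. Its e15.5 level lay near the top of the scale, 15.10, so its difference may be understated. Tnni2 had 12.31 at P0 and 13.49 at e15.5 (difference -1.18), and Tnnt3 9.91 at P0 and 11.12 at e15.5 (difference -1.21). The slow and cardiac Tnnt1 and Tnnc1 thus stood at -1.54 and -1.63 relative to the muscle median, while the 3 fast genes lay within 0.28 of it. Tnni1 stood at -0.05, but its P0 level was near the floor, so its difference may be understated and no exception is read from it.

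Myosin light chains ran the same way in part. Myl4, the embryonic and atrial light chain, had 11.64 at P0 and 14.02 at e15.5 (difference -2.38), and Myl3, the slow and ventricular one, 9.51 at P0 and 11.84 at e15.5 (difference -2.33). Mylpf, the fast regulatory chain, had 13.34 at P0 and 14.62 at e15.5 (difference -1.27), and Myl2, the slow and cardiac regulatory chain, 9.88 at P0 and 10.70 at e15.5 (difference -0.82). Myl2 was thus a slow form that stayed above the muscle median. Of 2 probes for Myl1, the fast alkali chain, the brighter had 14.57 at P0 and 14.66 at e15.5 (difference -0.08) and the dimmer 8.80 at P0 and 10.17 at e15.5 (difference -1.37). Myh8, the perinatal myosin heavy chain, gave the same kind of disagreement: 14.87 at P0 and 14.93 at e15.5 on the brighter probe (difference -0.07), and 12.06 at P0 and 13.07 at e15.5 on the dimmer (difference -1.01). The brighter probes lie near the top of the scale, 15.10, so no gain of Myh8 or Myl1 relative to the other muscle genes is read from them. Mylpf also lay near it at e15.5, so its difference may be understated. The adult fast heavy chains Myh1 (7.27 at P0, 6.88 at e15.5) and Myh4 (6.84 at P0, 6.84 at e15.5) and the slow Myh7 (7.09 at P0, 7.27 at e15.5) were near the floor.

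Calcium handling genes ran from -2.67 to 1.03 and thin filament and Z disc genes from -2.47 to 0.38. Sln, sarcolipin, an inhibitor of the calcium pump, had 10.94 at P0 and 13.61 at e15.5 (difference -2.67), while the fast-fibre pump Atp2a1 differed by -0.50 and the slow and general pump Atp2a2 by -1.51. Actn2, alpha-actinin of the Z disc, had 10.42 at P0 and 12.89 at e15.5 (difference -2.47). Its fast-fibre relative Actn3 had 8.35 at P0 and 7.98 at e15.5 (difference 0.37). Csrp3, a muscle LIM protein, differed by -2.42, the giant spring protein Ttn by -2.15 and slow myosin-binding protein Mybpc1 by -1.87, whereas the fast Mybpc2 had 7.54 at P0 and 7.16 at e15.5. Pvalb, the calcium buffer of fast fibres, had 8.01 at P0 and 6.98 at e15.5, at least 1.42-fold higher, and was below 7.5 on the other 6 arrays. Among the genes called fast up to here, differences ran from -1.47 in Tnnc2, which was near the top of the scale at e15.5, to 1.03 in Pvalb. Other muscle genes were not sorted by fibre type. For Tpm2, a tropomyosin, the probe used gave -0.53 and another gave 11.83 at P0 and 13.11 at e15.5 (difference -1.29).

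Of 9 kept members among myogenic regulators and progenitor genes, 7 were lower and 0 higher. Msc, a repressor of myogenic differentiation, had 7.98 at P0 and 10.35 at e15.5 (difference -2.37). Myf6, which acts in maturing fibres, had 7.63 at P0 and 9.23 at e15.5 (difference -1.60), and Myog, which drives myoblasts to fuse, 7.08 at P0 and 8.58 at e15.5, at least 2.11-fold lower. The satellite cell factor Pax7 (6.77 at P0, 6.83 at e15.5) and the early determination factor Myf5 (6.74 at P0, 6.77 at e15.5) were near the floor on both arrays. In energy metabolism Ckm, the muscle creatine kinase, had 9.87 at P0 and 11.62 at e15.5 (difference -1.75), and the muscle glycolytic isoforms Pgam2 and Eno3 differed by -2.02 and -1.97. Ckb, the creatine kinase found in many tissues, differed by -0.30, and the lipid-binding Fabp3 of heart and muscle by -0.01.

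**Figure D2:**
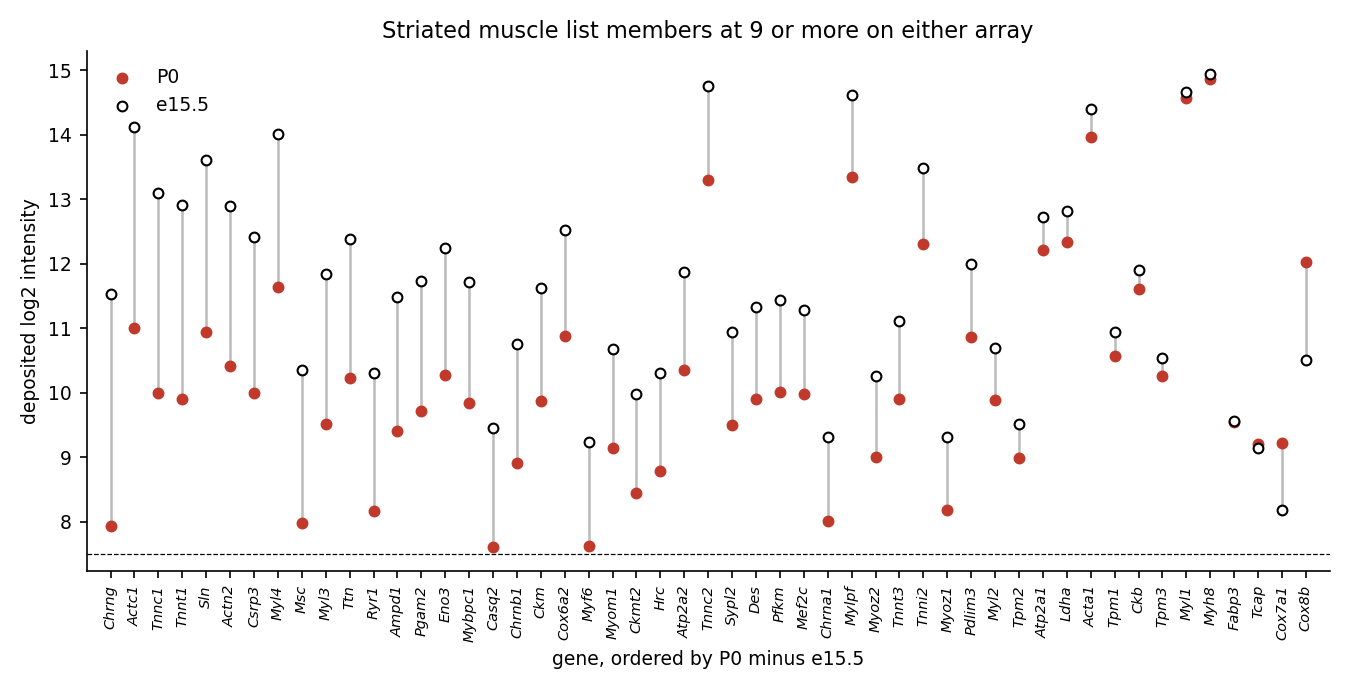
Deposited log2 intensity at P0 (filled red) and e15.5 (open) of striated muscle list members that reached 9 on either array, ordered by P0 minus e15.5; the dashed line marks 7.5. Chrng, Actc1, Tnnc1 and Tnnt1 stand at the low end with differences of -3.61 to -3.00, Acta1, Myl1 and Myh8 lie within 1 log2, and Cox7a1 and Cox8b are higher at P0.

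The epidermis list moved in 2 directions. Of 155 members on the array 81 were kept, of which 12 were higher at P0, 26 were lower and 43 lay within 1 log2, with a median of -0.63. The shares over all features kept were 7.05% higher and 7.13% lower. Over the 44 members at 9 or more on either array, hair follicle genes left out, the median was -0.92, with quartiles of -1.51 and -0.01. Of 11 kept basal genes 3 were lower and 0 higher, and of 19 kept suprabasal genes 10 were lower and 1 higher, whereas the cornified envelope held 10 of the 12 higher genes. With 7.5 required on both arrays 1 member remained higher, because the other 11 were under 7.5 at e15.5.

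The major keratins lay within 1 log2, with Krt10 near the top of the scale on both arrays, so that no small difference is read from it. Krt14 differed by -0.68, Krt5, its basal partner, had 8.38 at P0 and 8.76 at e15.5 (difference -0.38), and Krt10 had 14.05 at P0 and 14.69 at e15.5 (difference -0.63). Krt1, the partner of Krt10, had 9.38 at P0 and 9.996 at e15.5 (difference -0.62). Krt17, a keratin of periderm, appendages and wounds, had 10.26 at P0 and 10.21 at e15.5. Another basal keratin behaved differently: Krt15 had 8.25 at P0 and 11.05 at e15.5, a difference of -2.80 (6.97-fold lower), which is -1.88 from the epidermis median. Krt77, a suprabasal keratin, had 6.95 at P0 and 8.74 at e15.5, at least 2.37-fold lower, and Krt13, a keratin of mucosal epithelia, had 6.79 at P0 and 8.32 at e15.5, at least 1.77-fold lower.

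Late cornified envelope genes carried the largest epidermal differences. Of 14 Lce genes on the array 9 were kept, and 8 of the 9 were higher at P0, with a median of 3.05. Each of the 8 was below 7.5 at e15.5 and was kept through P0 alone, so it had to be higher there. Lce1c had 12.16 at P0 and 7.04 at e15.5, at least 25.4-fold higher. Lce1m had 11.66 at P0 and 6.89 at e15.5, at least 17.9-fold higher. Lce1b (10.96 at P0, 6.85 at e15.5) and Lce1d (10.79 at P0, 6.79 at e15.5) followed with at least 11.0-fold and 9.78-fold. These genes code for proteins that join the envelope late in its assembly. Lce1a2 had 9.83 at P0 and 6.78 at e15.5, and Lce1f 9.18 at P0 and 6.86 at e15.5. Near-identical copies can share a probe's signal, and this could not be tested here.

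Lce1c was above 7.5 on 1 embryonic array. It had 10.51 at e16.5, 7.14 at e17.5, 7.15 at e18.5 and 8.90 at P2, and was at 7.01 at P5 and 7.004 at P12. Krt10 ran 13.18 at e16.5, 9.20 at e17.5, 8.67 at e18.5 and 11.79 at P2 on the same arrays. The e15.5 array was thus the 1 array of the 4 with Krt10 above 11 on which Lce1c lay below 7.5, although its Krt10 level of 14.69 was the highest of all. Loricrin (Lor), the main protein of the envelope, was already at 14.11 at e15.5, against 13.55 at P0.

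The upstream windows of the 5 Lce1 genes with the largest differences are shown because they differed in the same direction. Each is the 100 bases before the annotated start, 5′ to 3′ on the gene's strand, from the RefSeq promoter table (GRCm38.p6), and capitals mark AGGATCAG, the longest run shared by Lce1b, Lce1a2, Lce1c and Lce1d.
Lce1b, chr3:92656927-92657026, minus strand: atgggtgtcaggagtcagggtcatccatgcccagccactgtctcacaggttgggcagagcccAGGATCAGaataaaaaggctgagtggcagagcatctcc
Lce1a2, chr3:92670316-92670415, minus strand: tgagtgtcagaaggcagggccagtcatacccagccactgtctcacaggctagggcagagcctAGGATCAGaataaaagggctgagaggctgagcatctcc
Lce1c, chr3:92679147-92679246, plus strand: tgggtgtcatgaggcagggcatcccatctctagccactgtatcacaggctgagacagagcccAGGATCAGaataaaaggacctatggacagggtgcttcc
Lce1d, chr3:92687211-92687310, minus strand: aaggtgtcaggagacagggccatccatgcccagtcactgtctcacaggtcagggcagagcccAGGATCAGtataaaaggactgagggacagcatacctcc
Lce1m, chr3:93019062-93019161, minus strand: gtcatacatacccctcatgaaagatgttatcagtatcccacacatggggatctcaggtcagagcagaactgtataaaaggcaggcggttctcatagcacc
The windows of the first 4 were 73.0% to 86.1% identical between pairs in a global alignment. AGGATCAG was picked by comparing these 4 windows, and it occurred on either strand in 0.34% of 32851 windows of 100 bases (113). The window of Lce1m, which lies apart from the others in the cluster, did not hold it and was 47.7% to 55.0% identical to them. Its difference was 4.77, and those of the first 4 ran from 3.05 to 5.12, all against e15.5 levels near the floor. Whether the shared run has a part in these differences was not tested.

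The Lce genes lie in the epidermal differentiation complex on mouse chromosome 3. Between S100a1 and S100a10 in the order of the RefSeq annotation, 51 genes were on the array and 25 were kept. Of these 11 were higher at P0, 2 were lower and 12 lay within 1 log2, beside 7.05% higher and 7.13% lower over all features kept. Of the 11, 10 were under 7.5 at e15.5 and were kept through P0 alone. Flg2 and Hrnr, both of the filaggrin-like family that binds keratin filaments, went opposite ways. They are next to each other in the order of the genes on the array, which leaves out genes without a probe. Flg2 had 9.12 at P0 and 6.96 at e15.5, at least 3.08-fold higher. Hrnr had 9.33 at P0 and 11.98 at e15.5, a difference of -2.66 (6.31-fold lower). Among the small proline-rich envelope proteins, Sprr2d had 8.02 at P0 and 6.90 at e15.5, and Sprr1b 7.22 at P0 and 9.14 at e15.5, at least 3.12-fold lower. S100a1, a calcium-binding protein at one end of the complex, had 11.84 at P0 and 8.18 at e15.5, and 11.78 at P2.

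**Figure D3:**
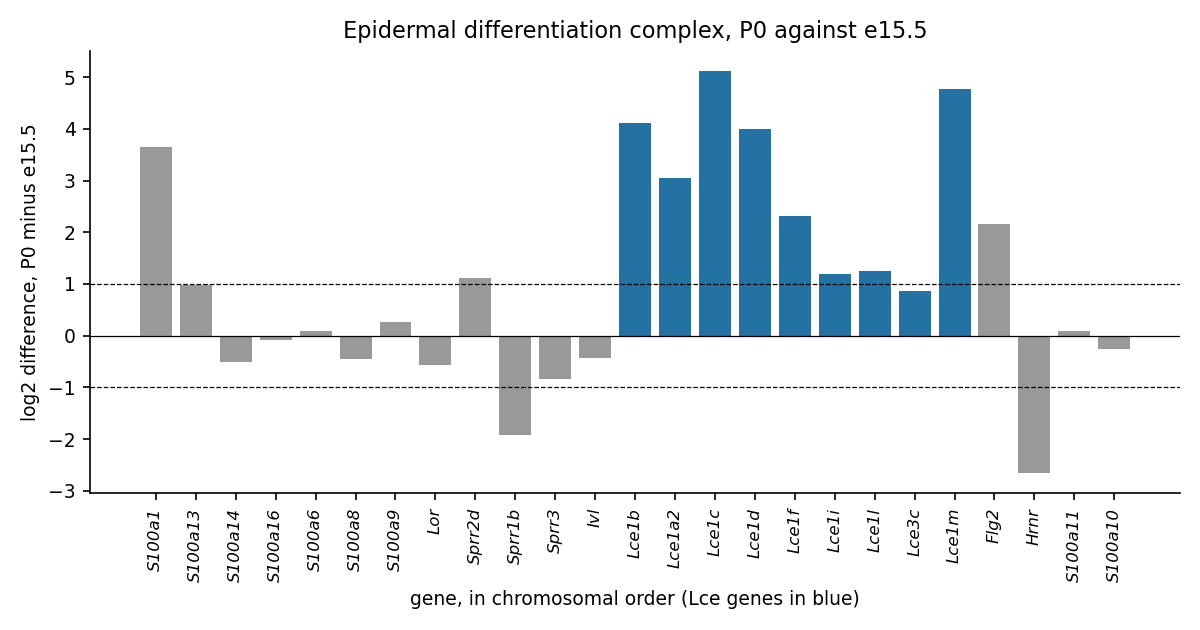
Log2 difference, P0 minus e15.5, of the 25 kept genes of the epidermal differentiation complex in chromosomal order (equal spacing, not to scale), with Lce genes in blue and dashed lines at 1 log2 either way. The run of Lce genes stands above 0, from 0.85 for Lce3c to 5.12 for Lce1c, while Hrnr, drawn next to Flg2, is at -2.66.

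Outside the Lce family the cornified envelope had 13 kept members, 2 higher and 5 lower. Cnfn, cornifelin, had 8.25 at P0 and 10.72 at e15.5 (difference -2.47). Ppl, periplakin, which links the envelope to keratins, had 8.62 at P0 and 11.04 at e15.5 (difference -2.42). Higher genes elsewhere in the list act on desmosomes of the outer layers: Cdsn, corneodesmosin, had 9.44 at P0 and 7.62 at e15.5 (difference 1.82, against 0.52 on its dimmer probe), and Klk7, a protease that degrades it, had 8.61 at P0 and 7.17 at e15.5. Of 10 kept genes of barrier lipids 4 were lower and 0 higher. They included Acer1, a ceramidase (7.94 at P0, 9.61 at e15.5), Elovl4, which elongates the fatty acids of ceramides (8.43 at P0, 9.99 at e15.5), and Alox12b, a lipoxygenase of the barrier (7.55 at P0, 8.98 at e15.5). Of 27 hair follicle genes on the array 2 were kept.

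Genes of fat stood out against this muscle and skin. Of 100 adipocyte list members on the array 78 were kept, of which 43 were higher at P0, 2 were lower and 33 lay within 1 log2, with a median of 1.43. Among all features kept 7.05% were higher and 7.13% lower. With 7.5 required on both arrays 20 were higher, since the others were near the floor at e15.5. Genes of the adipocyte list bore the label of fat tissue unevenly. At e15.5 Cidec (6.89), Plin1 (6.83) and Lep (6.98) were below 7.5, and Adipoq (8.43), Pparg (9.09) and Lpl (12.07) were above it. Which cells of the pool gave these signals was not tested. At P0 each of these 6 was above 7.5. Fabp4 and Fasn, listed on the array, were below 7.5 on both arrays (7.11 and 6.99 at P0, 6.88 and 7.01 at e15.5). Whether their probes report these genes was not tested, so no absence is read from them.

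Lipid droplet and lipolysis genes had the largest median of the adipocyte roles, with 13 of 16 kept members higher and a median of 2.69. Of these, Plin1, Plin4, Plin5, Lipe, Aqp7 and Cidec were under 7.5 at e15.5 and kept through P0 alone, so they had to be higher. Pnpla2, the lipase that takes the first fatty acid off stored triglyceride, had 14.08 at P0 and 8.44 at e15.5, 49.7-fold higher. Plin4, a droplet coat protein, had 12.51 at P0 and 7.17 at e15.5, at least 32.3-fold higher. Cidec, which fuses droplets, had 11.72 at P0 and 6.89 at e15.5, at least 18.7-fold higher. Mgll, which takes off the last fatty acid, had 11.59 at P0 and 8.02 at e15.5, and Cidea, a relative of Cidec, 11.08 at P0 and 7.80 at e15.5. The droplet coat Plin3 (8.24 at P0, 8.48 at e15.5) and the lipase inhibitor Hilpda (9.14 at P0, 9.24 at e15.5) did not share the difference.

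Secreted proteins were higher in 8 of 11 kept cases. Among the 8, Nrg4, Agt and Lep were under 7.5 at e15.5 and kept through P0 alone. Adipoq, adiponectin, had 13.40 at P0 and 8.43 at e15.5, 31.5-fold higher. Apoe, a lipid carrier, had 12.31 at P0 and 8.40 at e15.5 (difference 3.91), and Lep, leptin, 9.62 at P0 and 6.98 at e15.5, at least 4.35-fold higher. Leptin was at 12.71 at P2 and 13.74 at P5, so its P0 level was well below what followed. Sncg, gamma-synuclein, and the imprinted Nnat were within 1 log2, at 8.20 and 8.01 at P0 and 7.72 and 7.42 at e15.5, although they reached 12.89 and 11.85 at P2.

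Fatty acid uptake and triglyceride synthesis had 7 of 9 kept members higher. Among the 7, Lpin1, Dgat1, Gpd1, Agpat2, Slc27a1 and Gpat3 were under 7.5 at e15.5 and kept through P0 alone. The fatty acid transporter Slc27a1 had 10.98 at P0 and 7.29 at e15.5, at least 11.2-fold higher. Gpat3, an enzyme of the first step of triglyceride synthesis, had 11.19 at P0 and 7.01 at e15.5, and Agpat2, of its second step, 10.921 at P0 and 7.497 at e15.5. Fatty acid synthesis was mixed, with 6 of 14 higher and 1 lower. Of the 6, Me1, Thrsp and Mlxipl were under 7.5 at e15.5 and kept through P0 alone. Scd1, the main desaturase of fat, had 10.99 at P0 and 8.07 at e15.5 (difference 2.92), whereas Scd2, its embryonic relative, had 7.27 at P0 and 8.82 at e15.5 (difference -1.55). Acly, which supplies acetyl-CoA, differed by -0.67. The transcription factors had the smallest median of the adipocyte roles, 0.37, with 4 of 19 kept members higher and 1 lower. Their differences ran from -1.35 to 2.91, so the median does not describe single factors. Of the 4, Cebpa and Nr1h3 were under 7.5 at e15.5 and kept through P0 alone. Pparg, the master regulator, had 11.28 at P0 and 9.09 at e15.5 (difference 2.20, and 1.07 on a dimmer probe). Cebpa, its partner, had 8.60 at P0 and 7.13 at e15.5, and Nr1h3, the sterol receptor LXR alpha, 10.36 at P0 and 7.45 at e15.5. Klf5, a Kruppel-like factor that also acts in epithelia, had 8.56 at P0 and 9.91 at e15.5 (difference -1.35).

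Genes at the top of the ranking outside the lists included Adig, adipogenin, an adipocyte protein, with 12.80 at P0 and 7.22 at e15.5, at least 39.4-fold higher. Mrap, the accessory protein of the ACTH receptor, which adipocytes express, had 11.32 at P0 and 7.17 at e15.5, and Ces1d, a carboxylesterase with lipase activity, 11.997 at P0 and 7.450 at e15.5. Chpt1, an enzyme of phosphatidylcholine synthesis, had 11.86 at P0 and 7.38 at e15.5, with differences of 4.23 to 4.48 over 3 probes. Hp, haptoglobin, which adipocytes secrete, had 11.95 at P0 and 7.90 at e15.5. Trf, transferrin, placed here on a list of brain and liver genes, had 14.18 at P0 and 9.33 at e15.5, 28.9-fold higher, while the other 4 members kept of 12 on the array, among them Apoa2 (7.48 at P0, 10.49 at e15.5) and Ttr (7.27 at P0, 9.39 at e15.5), were lower.

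Genes of mitochondrial fatty acid oxidation were higher as well. Of 19 kept genes of fatty acid oxidation 14 were higher at P0 and 0 lower, with a median of 1.60. For this and the next lists, the shares over all features kept were 7.05% higher and 7.13% lower. Eci1, an isomerase for unsaturated fatty acids, had 12.25 at P0 and 9.16 at e15.5 (8.54-fold higher), Acadm, the medium-chain dehydrogenase, 13.998 at P0 and 11.62 at e15.5 (5.21-fold higher), and Acadl, the long-chain one, 10.76 at P0 and 8.34 at e15.5 (5.33-fold higher). The respiratory chain was higher in 8 of 32 kept members and lower in 0, with a median of 0.71, and Sdhb, of complex II, had 11.29 at P0 and 9.87 at e15.5. Glycolysis pointed the other way, with 3 of 10 kept members lower and 0 higher. Slc2a1, the glucose transporter GLUT1, had 9.46 at P0 and 11.35 at e15.5 (difference -1.89), and Pkm, pyruvate kinase, 10.07 at P0 and 11.86 at e15.5 (difference -1.80). Of 8 kept genes of the brown fat list 3 were higher at P0 and 0 lower, with a median of 0.70. The higher ones were Cidea (difference 3.28), Cox8b (1.52) and Cox7a1 (1.05). Cidea is also on the adipocyte list, and Cox8b and Cox7a1 are also on the muscle list. The brown fat gene Ucp1 was below 7.5 on both arrays (7.38 at P0, 6.81 at e15.5). Whether its probe reports the gene was not tested, so no absence is read from it.

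Proliferation genes were lower at P0 in 22 of 31 kept cases and higher in 0, with a median of -1.40. The share lower over all features kept was 7.13%. Top2a, the topoisomerase of dividing cells, had 8.41 at P0 and 10.79 at e15.5 (5.20-fold lower), Prc1, of the spindle midzone, 9.21 at P0 and 11.72 at e15.5 (5.69-fold lower), and Cdk1, the mitotic kinase, 8.45 at P0 and 10.40 at e15.5 (3.85-fold lower). Lmnb1, lamin B1, had 8.86 at P0 and 11.83 at e15.5 (7.82-fold lower). Fetal growth genes were lower in 6 of 17 kept cases and higher in 0. Capn6, a calpain without protease activity, had 9.16 at P0 and 11.78 at e15.5, Mest, an imprinted gene of mesoderm, 9.16 at P0 and 11.30 at e15.5, and Igf2bp3, a fetal RNA-binding protein, 9.21 at P0 and 10.65 at e15.5. Igf2 itself differed by 0.02 and the preadipocyte factor Dlk1 by -0.58.

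Red cell genes held the most negative list median, -2.04, and the most negative difference of any list member. Hbb-y, the embryonic beta-like globin, had 6.86 at P0 and 12.25 at e15.5, at least 26.9-fold lower, and Hba-x, the embryonic alpha-like globin, 6.76 at P0 and 9.42 at e15.5, at least 3.77-fold lower. Of 7 kept erythroid genes 5 were lower, among them Slc4a1, the anion exchanger of the red cell membrane (8.15 at P0, 11.25 at e15.5). The adult globin gene Hba-a1 had 14.73 at P0 and 15.10 at e15.5, the top of the scale. Macrophage genes were higher in 6 of 18 kept cases and lower in 0, among them Lyz2, lysozyme, with 12.06 at P0 and 10.57 at e15.5. Over all features kept the shares were 7.05% higher and 7.13% lower.

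**Figure D4:**
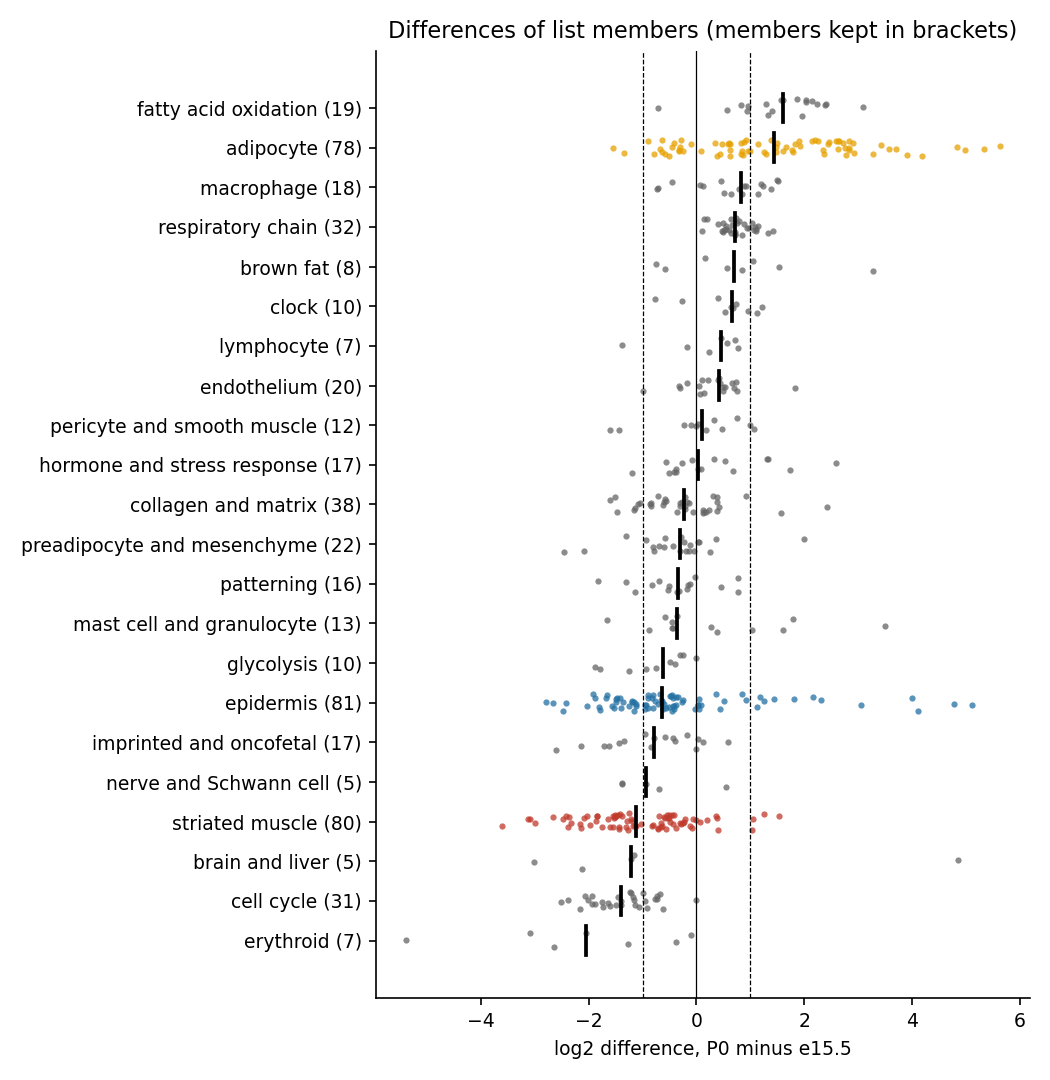
Log2 difference, P0 minus e15.5, of each kept member (points, spread vertically for legibility) of the gene lists with 3 or more kept members, ordered by list median (black bars), with dashed lines at 1 log2 either way. Fatty acid oxidation (median 1.60) and adipocyte genes (1.43) are at the top and cell cycle (-1.40) and erythroid genes (-2.04) at the bottom, and the epidermis list has members far to both sides of its median of -0.63.

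The other 6 arrays, which entered none of the differences above, allowed a test of direction. A line through the order of the 3 later embryonic and the 3 later postnatal arrays was fitted with limma to 7207 features, and 921 rose (12.8%) and 1174 fell (16.3%) at an adjusted p under 0.05. Of the features higher at P0, 501 were tested, of which 200 rose (39.9%) and 3 fell. Of the features lower at P0, 398 were tested, of which 228 fell (57.3%) and 7 rose. Features that passed thus mostly kept the direction they had between P0 and e15.5. The counts depended on single arrays. Without the e16.5, e17.5, P5 or P12 array, 290, 324, 452 or 272 features rose and 364, 444, 611 or 349 fell, and the share of the higher features that rose was 17.0%, 22.4%, 24.0% or 20.6%, beside 4.02%, 4.50%, 6.27% or 3.77% of all tested. The share of the lower features that fell was 30.9%, 35.4%, 42.2% or 32.9% without the same arrays, beside 5.05%, 6.16%, 8.48% or 4.84% of all tested. Muscle or skin was also unequal between these 6 arrays, as Krt10 shows, and its part in the trend was not tested beyond a fit with the mean of the epidermis list as a covariate, in which 121 rose and 167 fell. In that fit 58 of the 501 higher features rose (11.6%, beside 1.68% of all tested). Of the 398 lower features 90 fell (22.6%, beside 2.32% of all tested).

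In the lists, 18 of 18 fatty acid oxidation genes tested rose and 28 of 31 genes of the cell cycle fell in limma's trend fit. Acadm rose by 0.40 log2 per stage (SE 0.07, limma adjusted p = 0.0109) and Birc5, survivin, of the chromosomal passenger complex, had a slope of -0.48 (SE 0.04, limma adjusted p = 0.00334). Without the P12 array 5 of the 18 oxidation genes and 15 of the 31 cell cycle genes passed, and without the e16.5 array 8 and 15; without the P5 array 12 of the 18 and 20 of the 31 passed, and without the e17.5 array 13 and 20. Of 76 adipocyte genes tested 28 rose and 2 fell, with 13, 17, 15 or 19 rising without the e16.5, e17.5, P5 or P12 array. With the epidermis mean as a covariate, 5 of the 18 oxidation genes and 8 of the 76 adipocyte genes rose and 13 of the 31 cell cycle genes fell. With a step between embryonic and postnatal arrays in place of a line, limma called 0 of the 18, 3 of the 76 and 0 of the 31. Adipoq did not pass (slope 0.21, SE 0.08, limma adjusted p = 0.0773): it was at 11.81 at e16.5 and between 13.04 and 13.52 on the other 5 arrays. Cidec did not pass either (limma adjusted p = 0.906), with 7.98 at e16.5 and 11.94 at e18.5, and 9.26 at P12. In the muscle list 38 members were tested, of which 7 rose and 8 fell. Over all features tested 12.8% rose and 16.3% fell, so no result about the muscle list is read from these counts. Actc1 fell (slope -0.50, limma adjusted p = 0.0116) and Acta1 did not pass (limma adjusted p = 0.216).

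**Figure D5:**
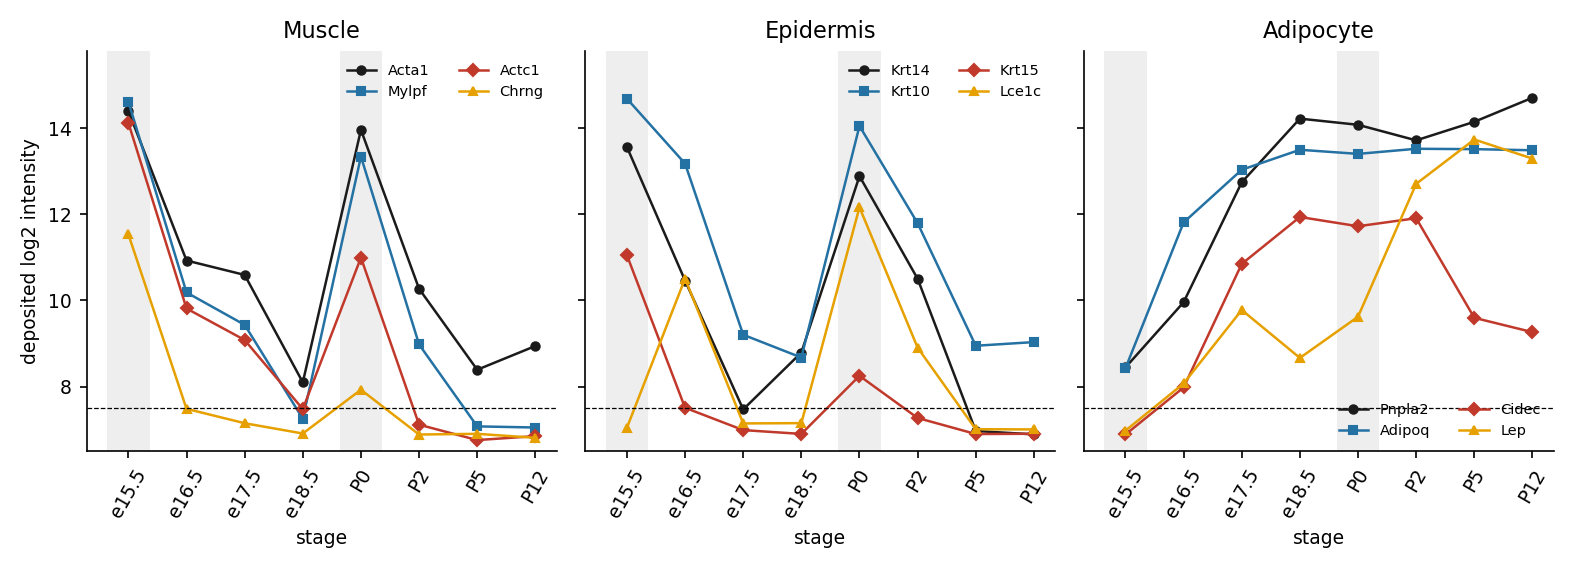
Deposited log2 intensity of 12 genes over the 8 stages in 3 panels (muscle, epidermis, adipocyte), 1 pool per stage, with the e15.5 and P0 arrays shaded and a dashed line at 7.5. Acta1, Mylpf and Krt14 peak on both shaded arrays, Lce1c on the P0 but not the e15.5 array, and Pnpla2 and Adipoq climb from e15.5 to e18.5 with no peak at P0.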

How the data were processed

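Per the labels' protocols, biotin-labelled cRNA of 8 pools was read on Illumina MouseRef-8 arrays and extracted in BeadStudio. The deposited values are the authors' processed log2 intensities for 25697 probes, with a range of 6.66 to 15.10 and sorted columns equal to within 0.005, so each array has the same distribution and any change in total signal is hidden. The log base was read from this range. How background was treated and which normalization was used is not given in the sources used here. A second deposited table of unnormalized signals was not used: its 16 per-sample columns match no sample label.

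Probes were named from the platform annotation: 23978 had 1 symbol, 0 had several and 1719 are unnamed here. Each gene was represented by the probe brightest on average across arrays. Features at 7.5 or more on either array were kept, and P0 minus e15.5 was computed with no test. A total of 865 of 1005 entries in 25 gene lists matched a feature; lists share members. The comparison, the members and the lists were chosen with earlier results of these data known. Named genes were the 15 largest differences each way (clone names left out), up to 6 members per list, up to 4 per role of the muscle, epidermis and adipocyte lists, and a fixed set of muscle, skin and fat genes; members named beyond these were picked as examples with values in view.

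The trend over the other 6 arrays used limma 3.58.1 in R 4.3.3 with Benjamini-Hochberg adjustment over 7207 features at 7.5 or more on at least 2 of them, 4 residual degrees of freedom and a threshold of 0.05. Its spread is the scatter of single pools around a line. Tables were made with pandas 2.3.3 in Python 3.11.15. The number of arrays limits the precision. Promoter windows of 8 genes looked up by symbol matched 8 entries of the RefSeq table, and gene order came from the RefSeq annotation GRCm38.p6; no build is named for the array values.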

Additional observations from a re-analysis of the deposited data

How the results depend on the processing

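A total of 13 counts and medians were recomputed under 62 alternative settings: 40 stayed within 1.5 times the count or 0.2 log2 of the median, 22 moved and 0 reversed. At 2 log2 or more, 147 features were higher and 76 lower at P0. With 7.5 on both arrays, 1 epidermis and 20 adipocyte members were higher, since members near the floor at e15.5 then drop out. The epidermis median was -0.66 with 9 on both arrays and -0.60 over members at 12 or more. With 2 log2 or 0.5 log2 in place of 1, 19 or 119 features were high on the P0 and e15.5 arrays alone. Leaving out 1 of the 6 arrays, the trend gave 272 to 1091 that rose and 349 to 1436 that fell. A step between 3 embryonic and 3 postnatal arrays gave 4 that rose and 2 that fell (899 and 1091 at an unadjusted p under 0.05), with 0 of the features higher at P0 rising and 1 of the lower ones falling, array weights 1689 and 1989, and the epidermis mean as a covariate 121 and 167; the cause was not tested. Of 77 named genes with several probes that differed by 1 log2 or more, the mean of the probes kept the sign in 77 and the size of 1 log2 in 46. Centring removed a shift of -0.04. No paired analysis was possible because each stage had 1 pool. Without replicates, the spread of P0 or e15.5 is unknown, and near the floor of the scale differences are understated.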

Other observations

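The 2 features with the largest excess on the e15.5 array over every other array were neighbours, found after their values had been seen. The gene 2310034C09Rik had 6.96 at P0 and 12.55 at e15.5, and Krtap13, a keratin-associated protein of hair, had 6.81 at P0 and 11.41 at e15.5. They exceeded the highest of the other 7 arrays by 5.47 and 4.52 log2. The RefSeq annotation (GRCm38.p6) places them side by side on mouse chromosome 16. Of 13 genes on the array among the 12 before and the 12 after Krtap13, Krtap13 included, these 2 reached 7.5 at e15.5. Of 30 Krtap genes on the array 1 reached 7.5 at e15.5 and 0 on any other array, and the next highest stood at 7.07 at e15.5. The 2 hair follicle members of the epidermis list that were kept, Gata3 and Sox21, lay within 1 log2.

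Mast cell genes disagreed between P0 and e15.5. Mcpt4, a chymase of connective tissue mast cells, had 12.27 at P0 and 8.78 at e15.5 (11.3-fold higher), while Hdc, which makes histamine, had 11.85 at P0 and 13.51 at e15.5 (3.15-fold lower) and Cpa3, their carboxypeptidase, 12.31 at P0 and 12.89 at e15.5. On the other 6 arrays all 3 fell in limma's trend fit, with adjusted p = 0.0188 for Mcpt4, 0.00355 for Hdc and 0.00334 for Cpa3. Mcpt4 was at 11.90 at e16.5 and 8.01 at P5, so e15.5 and P5 enclose its high stages.

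Of 16 kept patterning genes 13 lay within 1 log2 and 3 were lower, beside 7.13% lower over all features kept: Ccn4, a target of Wnt signalling, had 8.01 at P0 and 9.83 at e15.5, Fzd2, a Wnt receptor, 7.71 at P0 and 9.02 at e15.5, and Wnt5a 8.37 at P0 and 9.51 at e15.5. In the collagen and matrix list 2 of 38 kept members were higher and 7 lower, beside 7.05% higher and 7.13% lower over all features kept, so the higher count is no result about the list. Timp4, a protease inhibitor of adipose tissue, had 9.51 at P0 and 7.09 at e15.5, and Eln, elastin, 11.17 at P0 and 9.60 at e15.5, while Lox, which cross-links both elastin and collagen, had 10.47 at P0 and 12.07 at e15.5.

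The probe with the largest difference of all, 7.35, has no gene name here (ILMN_2835423): it had 14.62 at P0 and 7.26 at e15.5.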
